A study of Zea mays with 10 samples.

Results

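Transcript levels of maize seedlings on the 2 sides of dawn were compared: the midmorning arrays ZT4 and ZT28, both at a subjective time of 4 h, were set against the late-night arrays ZT20 and ZT44, both at a subjective time of 20 h. These are 4 of the 10 arrays of the series. Each group therefore has 1 array from the first day in constant light and 1 from the second. Zeitgeber time (ZT) counts the hours from the last lights-on of the light and dark cycles that had set the clock. The arrays were chosen by these labels alone, and no expression value was used for that choice. The question was which transcripts differ in the same direction from each late-night array to each midmorning array, both forward across dawn from ZT20 to ZT28 and between the days.

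All 4 arrays carried RNA from the aerial tissue of young plants of B73, the inbred line of the maize reference genome, and all plants were kept in constant light at the time of harvest. The ZT4 plants had come out of the last true dark period, whereas ZT28 followed a subjective night spent in light, and both late-night arrays were harvested in light. Each time point has 1 array made from RNA pooled over replicate groups of seedlings, so single plants are not resolved. The spread used below is that between the arrays of the same subjective time on the 2 days, and every p-value measures that spread only, with the day itself inside it.

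The circadian clock of plants is a set of interlocked transcription loops that keeps about a daily rhythm in constant conditions. In Arabidopsis, Myb-type factors of the morning repress evening genes, pseudo-response regulators follow through the day, and an evening complex with LUX closes the loop at night. Leaf cells time much of their daily work by it: light harvesting and carbon fixation belong to the day, leaf starch is degraded at night, and carotenoids feed both photoprotection and the synthesis of abscisic acid, a hormone that closes stomata.

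Median signals over the probe sets tested lay between 364 and 410 on the 10 arrays. ZT4 stood apart from ZT28 at the bright end: the highest signal was 16839 at ZT4 and 10020 at ZT28, against 11900 at ZT20 and 10398 at ZT44. The hybridization spike BioB read 208 at ZT4 and 121 at ZT28, against 131 at ZT20 and 127 at ZT44, and ZT28, ZT44 and ZT20 had the lowest readings of the series. After each probe set was centred on its mean over the 10 arrays, ZT4 and ZT28 correlated at r = -0.30 and ZT20 and ZT44 at r = 0.37 across 12512 probe sets, which are not independent replicates. ZT28 correlated at r = 0.33 with ZT44 and r = 0.16 with ZT20, and ZT4 at r = -0.59 with ZT44 and r = -0.44 with ZT20, so ZT28 was more like the late-night arrays than like ZT4. Leaf markers were bright and kernel markers dim on all 4 arrays. The summed signal of 9 green-leaf probe sets, 8 of them tested, was 67753 at ZT4 and 41474 at ZT28, against 47891 at ZT20 and 42201 at ZT44, while 8 of 9 zein probe sets, which mark kernels, were under 50 on all 4 arrays.

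No probe set passed the test. With limma, 0 of 12512 probe sets reached an adjusted p of 0.05 and the lowest adjusted p was 0.86. At an unadjusted p of at most 0.05, limma listed 293 probe sets as higher at midmorning (2.34%) and 205 as lower (1.64%). That split depended on scaling, with 58.8% of these probe sets higher with medians centred, 38% without scaling and 48.1% after quantile normalization. The results below are therefore levels and differences with their errors, none of them past the threshold.

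Differences of the same direction in all 4 pairs, which share arrays, were mostly small. Both midmorning signals lay above both late-night signals in 2741 probe sets (21.9%) and below both in 2257 (18%), on centred log2 signals with signals under 50 counted as 50. The higher share of these was 54.8% with medians centred, 39.6% without scaling and 48.5% after quantile normalization. A difference of at least 1.5-fold in each of the 4 pairs was found in 39 probe sets with higher midmorning signals (0.312%) and 9 with lower ones (0.0719%). At least 2-fold in each pair was reached by 5 with higher signals (0.04%) and 1 with lower signals (0.00799%), and 3-fold by 0.

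Taken singly, the pairs with ZT4 held most of the large differences. ZT28 was at least 2-fold above ZT20 in 48 probe sets and at least 2-fold below it in 9, whereas ZT4 was that far above ZT20 in 262 and below it in 134. Against ZT44, ZT28 was higher in 27 and lower in 13, and ZT4 was higher in 265 and lower in 160. The pair ZT28 minus ZT20 shares no array with ZT4 minus ZT44: 15 probe sets were at least 2-fold higher in both, or 31.2% of the 48 and 5.66% of the 265, and 3 were lower in both, or 33.3% of the 9 and 1.88% of the 160. Across all probe sets, the log2 differences of these 2 pairs correlated at r = 0.13. The other pairing without a shared array, ZT4 minus ZT20 with ZT28 minus ZT44, had r = 0.30, with 10 probe sets at least 2-fold higher in both, or 3.82% of the 262 and 37% of the 27, and 1 lower in both, or 0.746% of the 134 and 7.69% of the 13.

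**Figure D1:**
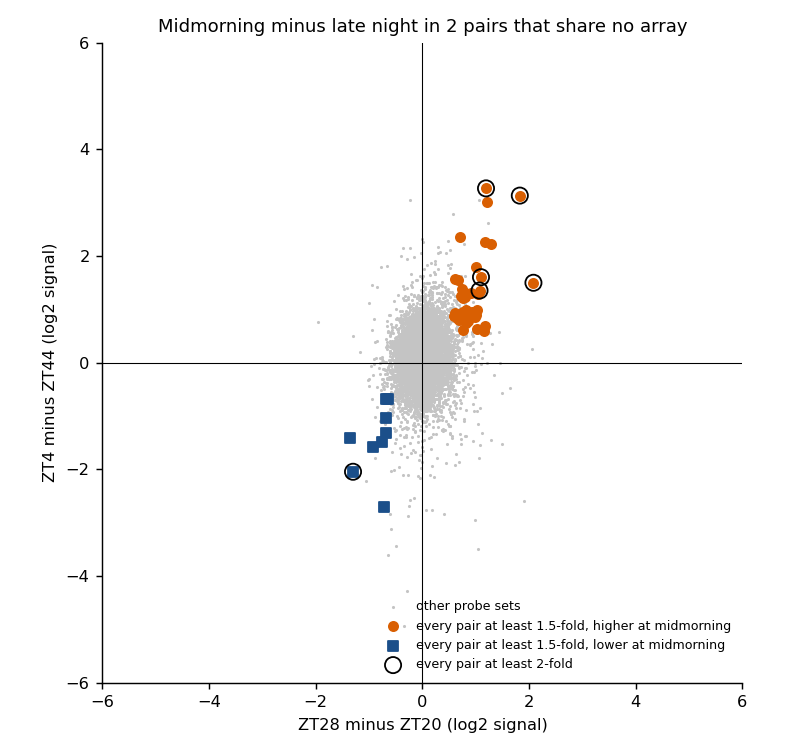
Log2 difference of the median-centred signals at midmorning minus late night in 2 pairs that share no array with each other, ZT28 minus ZT20 on the horizontal axis and ZT4 minus ZT44 on the vertical axis, with 1 point per probe set (12512). Orange circles mark the 39 probe sets and blue squares the 9 that differ at least 1.5-fold in each of the 4 pairs, black rings mark the 6 at least 2-fold apart, and the cloud is taller than wide because differences against ZT4 are larger.

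Of the 6 probe sets at least 2-fold apart in each pair, 3 have a gene name. The largest mean difference belonged to GRMZM2G114592, annotated as an HhH-GPD base excision DNA repair protein, a class of glycosylases that removes damaged bases. Its signal was 2416 at ZT4 and 641 at ZT28, against 178 at ZT20 and 309.6 at ZT44, which is 5.58-fold higher at midmorning (log2 difference 2.48 ± 0.69 SE, n = 2 arrays each, limma adjusted p = 0.86). The lower midmorning array exceeded the higher late-night array 2.13-fold on the centred scale. In whole aerial tissue, fewer cells that express a gene and less RNA per cell cannot be told apart, which holds for every level below.

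PIP2-6 (GRMZM2G047368), a plasma membrane aquaporin that lets water cross the membrane, read 1854 at ZT4 and 433 at ZT28, against 186 at ZT20 and 216 at ZT44. Its log2 difference was 2.23 ± 0.69 SE (n = 2 each, limma adjusted p = 0.86). Of these 4 arrays both genes were highest at ZT4, and ZT28 carried the smaller share of the difference. The DNAJ protein of GRMZM2G059502, a co-chaperone that delivers clients to HSP70, had weaker signals of 152 at ZT4 and 110.4 at ZT28, against 31.1 at ZT20 and 56.3 at ZT44. Its log2 difference was 1.70 ± 0.57 SE, and 1.35 with signals under 50, the background limit, counted as 50.

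The other 3 probe sets have no gene in the annotation used. Zm.6763.3.A1_at was 210.2 at ZT4 and 422 at ZT28, against 98.1 at ZT20 and 83.6 at ZT44, and of the 5 higher probe sets it was the only one brighter at ZT28 than at ZT4. Zm.301.1.A1_a_at was bright at 2479 at ZT4 and 2216 at ZT28, against 1037 at ZT20 and 1091 at ZT44. The 1 probe set in the other direction, Zm.898.1.A1_a_at, was 17.9 at ZT4 and 60.1 at ZT28, against 146 at ZT20 and 219 at ZT44 (log2 difference -2.37 ± 0.50 SE, limma adjusted p = 0.86). Its ZT4 signal is under the background limit, and with signals under 50 counted as 50 the difference was -1.67. Just outside the 2-fold limit, the smallest pair was 1.89-fold for Zm.4312.1.A1_at, 1.87-fold for SAG21 and 1.86-fold for Zm.14427.1.S1_at.

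**Figure D2:**
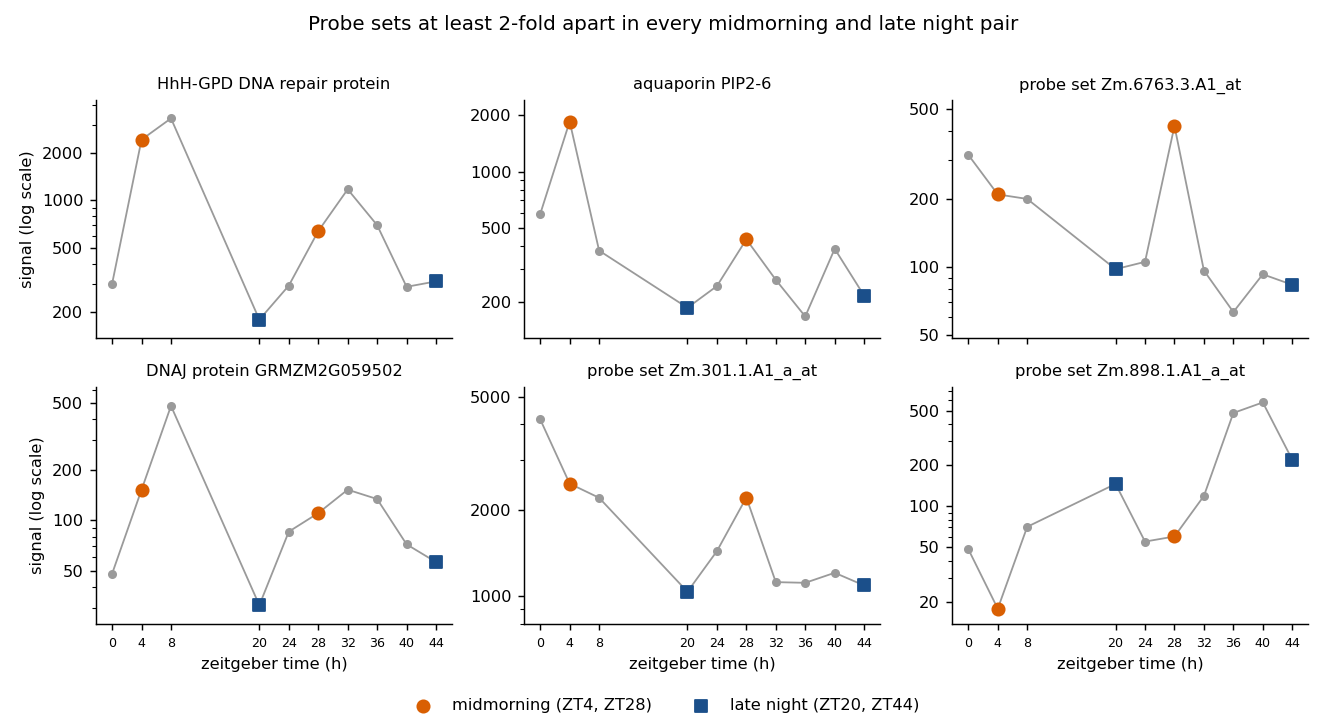
Deposited signal on a log axis against zeitgeber time in hours for the 6 probe sets at least 2-fold apart in each midmorning and late-night pair, with orange circles for midmorning (ZT4, ZT28), blue squares for late night (ZT20, ZT44) and grey points for the other 6 arrays, each point being 1 array. In the HhH-GPD panel the midmorning signals of 2416 and 641 stand above the late-night signals of 178 and 309.6, and in the last panel the order is turned round.

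The named probe sets with the smallest limma p had modest differences and tight pairs. A structural cell wall protein (GRMZM2G345700) read 1982 at ZT4 and 2237 at ZT28, against 1154 at ZT20 and 1155 at ZT44, 1.92-fold higher (log2 difference 0.94 ± 0.14 SE, n = 2 each, limma adjusted p = 0.86). A protein with an RNA recognition motif (GRMZM2G550472) was 597 at ZT4 and 644 at ZT28, against 361 at ZT20 and 399 at ZT44. U2AF35B, the small subunit of the splicing factor that marks the 3′ splice site, was 194 at ZT4 and 235 at ZT28, against 114 at ZT20 and 140.3 at ZT44. In all 3, ZT28 was above ZT4, and the smallest pair was 1.85-fold, 1.66-fold and 1.55-fold in that order.

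The lower ones by the same rule were crp1, CFM2, CRR6 and PTAC2. The RNA processing protein crp1, needed in maize for chloroplast cytochrome b6f transcripts, was 267 at ZT4 and 302 at ZT28, against 405 at ZT20 and 445 at ZT44 (log2 difference -0.51 ± 0.12 SE). CFM2 (GRMZM2G094072), which takes part in chloroplast intron splicing in Arabidopsis, was 344 at ZT4 and 394 at ZT28, against 632 at ZT20 and 578 at ZT44 (-0.64 ± 0.13). In both genes the midmorning arrays lay close together, with ZT4 the lower.

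CRR6 (GRMZM2G106164), needed in Arabidopsis to assemble the chloroplast NDH complex, read 373 at ZT4 and 447 at ZT28, against 843 at ZT20 and 669.7 at ZT44 (log2 difference -0.81 ± 0.18 SE). PTAC2 (GRMZM2G122116), a component of the transcriptionally active plastid chromosome, was 333 at ZT4 and 436 at ZT28, against 676 at ZT20 and 615.4 at ZT44 (-0.69 ± 0.15). By another criterion, the sigma factor sig3, which directs the plastid-encoded RNA polymerase to promoters, is 1 of the 9 probe sets at least 1.5-fold lower in each pair. Its signal was 80.04 at ZT4 and 155 at ZT28, against 257 at ZT20 and 251 at ZT44 (-1.12 ± 0.36). The groups did not overlap in any of the 5, which their choice by low p or by size favours, and each limma adjusted p was 0.86.

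**Figure D3:**
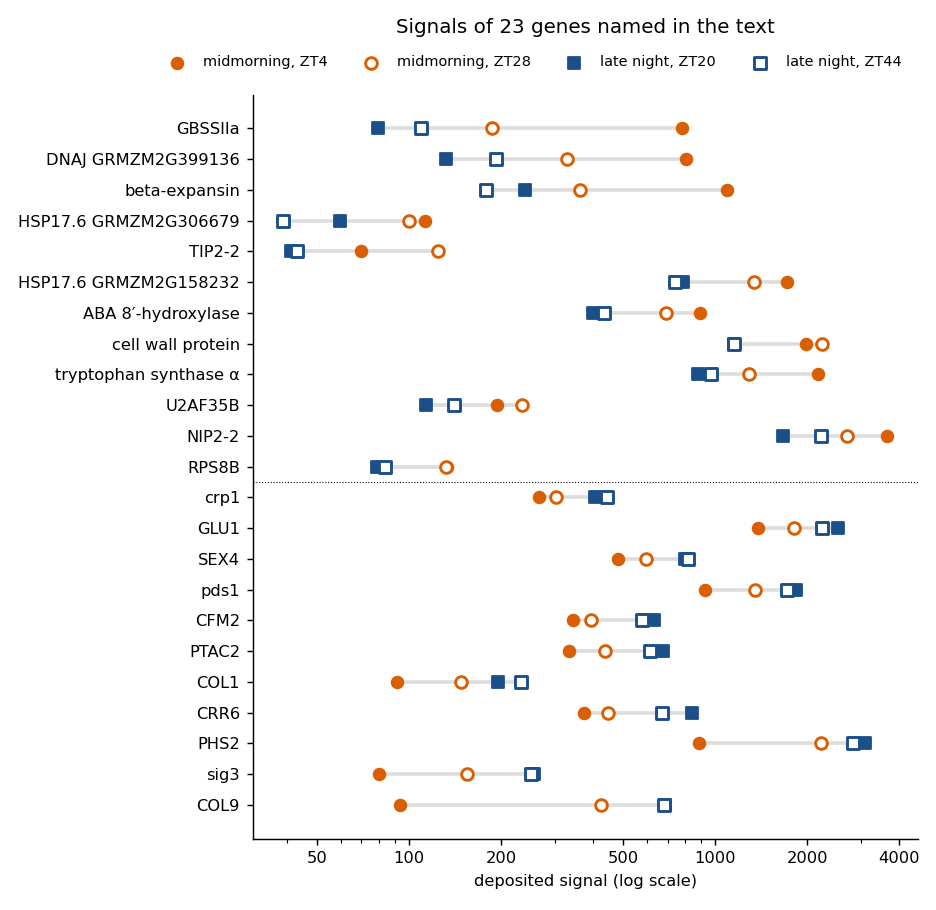
Deposited signal on a log axis of 23 named genes, each with its midmorning signals (orange circles, ZT4 filled and ZT28 open) and its late-night signals (blue squares, ZT20 filled and ZT44 open), 1 array per symbol, with genes higher at midmorning above the dotted line and lower ones below it. The groups do not overlap in any row, which the choice of these genes by low p or by size favours. The ZT28 symbol lies nearer than ZT4 to the late-night symbols in most rows, and GBSSIIa shows the widest spread, with 783 at ZT4 and 79.3 at ZT20.

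Genes of ribosomes and translation stood mostly higher at midmorning, by small amounts. Of 90 probe sets tested, 51 were above both late-night arrays on both midmorning arrays (56.7%) and 4 were below (4.44%), where 21.9% and 18% of all probe sets were. The median log2 difference was 0.24 over the list and 0.03 over all probe sets. It was 0.17 without scaling and 0.13 after quantile normalization, where the medians of all probe sets were -0.04 and -0.01, and 49 and 51 members were then higher.

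The size was unequal between the days. List medians were 0.36 for ZT4 minus ZT20 and 0.41 for ZT4 minus ZT44, but 0.06 for ZT28 minus ZT20 and 0.11 for ZT28 minus ZT44. Leaving out ZT4 gave 55 members higher, where 32.8% of all probe sets were, and leaving out ZT28 gave 77, where 48.2% were. In this list 57 of 90 members belong to the 2503 brightest probe sets, of which 28.6% were higher and whose median was 0.20 for ZT4 against late night and 0.01 for ZT28 against late night, and the part of brightness in the list's difference was not tested.

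RPS8B, of the small ribosomal subunit, read 133 at ZT4 and 132 at ZT28, against 78.6 at ZT20 and 83.8 at ZT44 (log2 difference 0.78 ± 0.19 SE, limma adjusted p = 0.86). RPS25B was 1752 at ZT4 and 1536 at ZT28, against 731 at ZT20 and 1284 at ZT44, with ZT20 far below the other 3 arrays. Members of the acidic stalk of the large subunit were higher by less, with rpp2a-2 at 2113 at ZT4 and 1745 at ZT28, against 1411 at ZT20 and 1512 at ZT44. The elongation factor elfa3, which brings charged tRNA to the ribosome, was 2009.6 at ZT4 and 1840.2 at ZT28, against 1575 at ZT20 and 1553 at ZT44. Of the 4 members in the other direction, the most distant was a putative elongation factor 1-alpha (GRMZM2G458283) at 231 at ZT4 and 264 at ZT28, against 297 at ZT20 and 344 at ZT44, while a second probe set of that gene overlapped between the groups. Since genes of this family can be near copies, probe sets of one member may read others.

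Heat shock proteins and chaperones, which keep other proteins folded, had a like share: 25 of 46 were higher (54.3%) and 5 lower (10.9%). The shares over all probe sets were 21.9% and 18%. The list median was 0.25, with 0.18 both without scaling and after quantile normalization, and 20 and 21 members were then higher. Its medians were positive in all 4 pairs, at 0.14 for ZT28 minus ZT20, 0.30 for ZT4 minus ZT20, 0.09 for ZT28 minus ZT44 and 0.29 for ZT4 minus ZT44. Leaving out 1 array at a time gave between 27 and 32 higher members, where between 32.1% and 48.2% of all probe sets were. The study called 27 of the 46 rhythmic on these samples, so their direction is not independent of that choice.

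Small heat shock proteins, which hold unfolding proteins in solution, were set apart from the list after the values were seen. One class I member (GRMZM2G158232) was 1716 at ZT4 and 1337 at ZT28, against 784 at ZT20 and 743 at ZT44, 2.09-fold higher (log2 difference 1.06 ± 0.17 SE, limma adjusted p = 0.86). A related gene, HSP17.6 GRMZM2G306679, was weaker at 112.99 at ZT4 and 100.03 at ZT28, against 59.7 at ZT20 and 38.8 at ZT44 (1.22 ± 0.30, or 0.99 with signals under 50 counted as 50). These genes were higher on both days. The mitochondrial hsp22 was 593 at ZT4 and 321 at ZT28, against 227 at ZT20 and 186 at ZT44. Of 10 such probe sets, 6 were higher and 1 lower, a class P-related member (GRMZM2G429396) at 103 at ZT4 and 271 at ZT28, against 325 at ZT20 and 397 at ZT44. Over all probe sets, 21.9% were higher and 18% lower.

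Chaperones of other classes lay on both sides as well. A second DNAJ gene, GRMZM2G399136, was 804 at ZT4 and 329 at ZT28, against 132 at ZT20 and 193 at ZT44 (log2 difference 1.76 ± 0.54 SE). Among 10 DNAJ probe sets 6 were higher and 1 lower, where 21.9% and 18% of all probe sets were. Without scaling 4 were higher and 2 lower, and after quantile normalization 5 and 2. The DNAJ median of 0.18 was then 0.11 and 0.12. In the endoplasmic reticulum, the HSP70 protein bip2 was 1226 at ZT4 and 1392 at ZT28, against 979 at ZT20 and 1047 at ZT44. An HSP70 gene in the other direction, GRMZM2G428391, was 716 at ZT4 and 689.9 at ZT28, against 1001 at ZT20 and 908 at ZT44, so members of the HSP70 family lay on both sides.

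Transporters split by kind. Of 95 probe sets 31 were higher and 23 lower, with a list median of 0.04 that was -0.03 without scaling and 0.02 after quantile normalization. Within the list, 31 probe sets are aquaporins, set apart after the values were seen: 20 were higher and 0 lower, with a median of 0.52 (0.45 without scaling, 0.41 after quantile normalization). Without scaling 21 were higher and 1 lower, and after quantile normalization 23 and 0. Of all 12512 probe sets, 2019 were higher and 3077 lower without scaling, and 2540 and 2699 after quantile normalization. The fitted log2 differences of the aquaporins ran from -1.50 to 2.23, so the direction was not uniform. The other 64 probe sets of the transporter list held 11 higher and 23 lower, with a median of -0.12. The aquaporin medians were 0.76 for ZT4 minus ZT20 and 0.89 for ZT4 minus ZT44, but 0.10 for ZT28 minus ZT20 and 0.19 for ZT28 minus ZT44, and 17 of the 31 belong to the 2503 brightest. Several of these probe sets read the same gene.

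The tonoplast aquaporin TIP2-2 was 69.5 at ZT4 and 125 at ZT28, against 41.3 at ZT20 and 43.2 at ZT44 (log2 difference 1.21 ± 0.30 SE, or 0.92 with signals under 50 counted as 50), and here ZT28 was the higher midmorning array. NIP2-2 was 3657 at ZT4 and 2707 at ZT28, against 1672 at ZT20 and 2222 at ZT44 (0.78 ± 0.21). PIP2-3 was 2067 at ZT4 and 1200.3 at ZT28, against 931 at ZT20 and 847 at ZT44 (0.90 ± 0.39), with 0.34 in a second probe set of the gene. On the other side of the transporter list, a polyol transporter (GRMZM2G138589), which carries sugar alcohols, was 33.2 at ZT4 and 159 at ZT28, against 183 at ZT20 and 317 at ZT44 (-1.66 ± 0.73), with ZT4 under the background limit and a difference of -1.41 when signals under 50 were counted as 50. Each limma adjusted p was 0.86.

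Other aquaporins of the plasma membrane were bright. PIP2-5 was 2440.2 at ZT4 and 1441 at ZT28, against 1285 at ZT20 and 1266 at ZT44, and PIP1-5 was 3043 at ZT4 and 1279.5 at ZT28, against 1066 at ZT20 and 1205 at ZT44. PIP1-1, with 11133 at ZT4 and 7746 at ZT28, against 8324 at ZT20 and 7691 at ZT44, overlapped between the groups. Among the other transporters, the metal transporter NRAMP1 was 387 at ZT4 and 461 at ZT28, against 309 at ZT20 and 357 at ZT44 (log2 difference 0.42 ± 0.14 SE). The sulfate transporter AST91 was 3956 at ZT4 and 2784 at ZT28, against 2281 at ZT20 and 2400.5 at ZT44 (0.58 ± 0.23), so ZT28 was the nearer array to late night in the sulfate gene but not in the metal gene.

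**Figure D4:**
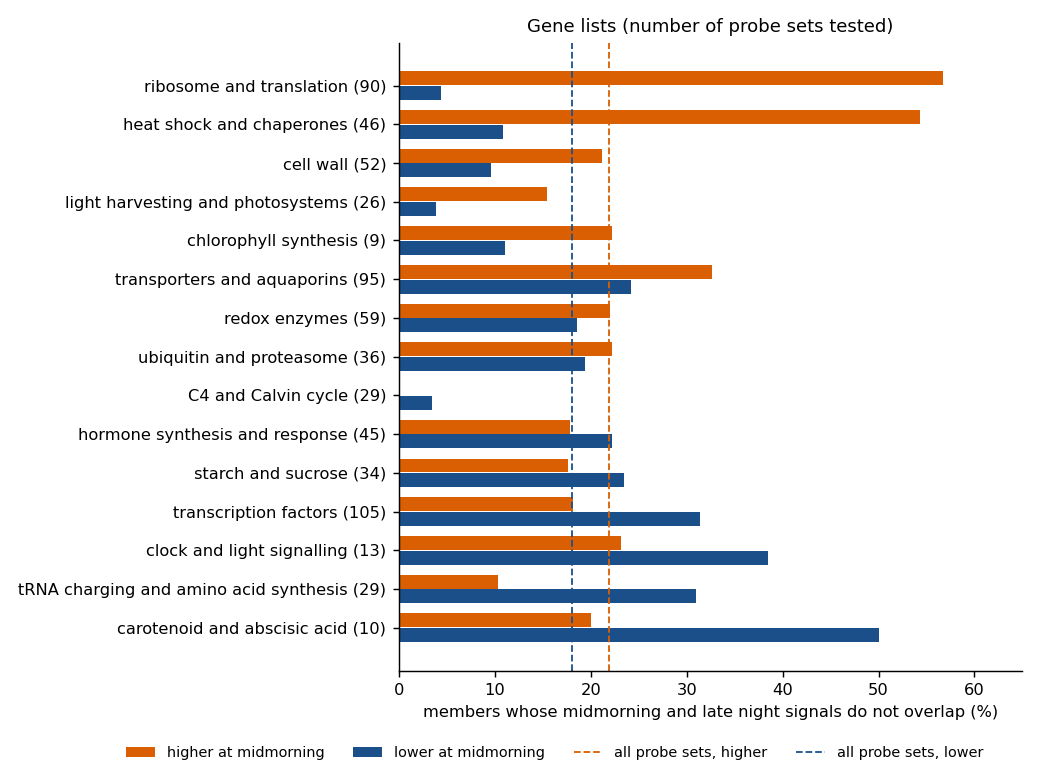
Share in percent of each list's tested probe sets, with their number in parentheses, whose midmorning and late-night signals do not overlap, as orange bars for higher and blue bars for lower at midmorning, on median-centred signals. Dashed lines give the shares over all probe sets, 21.9% higher and 18% lower, and the ribosome and translation and the heat shock lists have the longest orange bars, at 56.7% and 54.3%, while without scaling 39.6% of all probe sets whose groups do not overlap were higher.

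Genes that make carotenoids were mostly lower at midmorning, and the gene that degrades abscisic acid was higher. Of 10 probe sets tested 5 were lower (50%) and 2 higher (20%), where 18% and 21.9% of all probe sets were, with a median of -0.29, which was -0.36 without scaling and -0.32 after quantile normalization. Medians for the 4 pairs were all negative, at -0.39 for ZT28 minus ZT20, -0.61 for ZT4 minus ZT20, -0.06 for ZT28 minus ZT44 and -0.33 for ZT4 minus ZT44. Without ZT28, 8 members were lower, where 34.8% of all probe sets were. The study called 6 of the 10 rhythmic on these samples.

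In pathway order, both probe sets of phytoene synthase, the entry enzyme, were lower: Zm.13514.2.S1_a_at was 305 at ZT4 and 278 at ZT28, against 463 at ZT20 and 424 at ZT44. Phytoene desaturase pds1 was 930.4 at ZT4 and 1354 at ZT28, against 1844 at ZT20 and 1722 at ZT44 (log2 difference -0.59 ± 0.20 SE, limma adjusted p = 0.86). The next desaturase, ZDS, was 345 at ZT4 and 518 at ZT28, against 785 at ZT20 and 636 at ZT44. These 3 steps thus shared a direction on both days, with ZT4 the lowest of the 4 compared arrays for both desaturases.

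Beta-carotene hydroxylase (GRMZM2G454425), which makes zeaxanthin, was 1598 at ZT4 and 2121 at ZT28, against 3011 at ZT20 and 2446 at ZT44. Zeaxanthin epoxidase (GRMZM2G127139), the next enzyme on the way to abscisic acid, ran the other way at 2253 at ZT4 and 2002 at ZT28, against 1356 at ZT20 and 1667 at ZT44 (log2 difference 0.57 ± 0.34 SE). The abscisic acid 8′-hydroxylase CYP707A4 was 893 at ZT4 and 692 at ZT28, against 399 at ZT20 and 435 at ZT44 (0.99 ± 0.40). The gene vp14, whose product cuts the carotenoid precursor of abscisic acid, overlapped between the groups at a weak 39.6 at ZT4 and 64.6 at ZT28, against 55.4 at ZT20 and 57.1 at ZT44.

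Starch and sucrose genes went both ways, with 6 of 34 higher and 8 lower (23.5%), near the shares of all probe sets. GBSSIIa, a starch synthase bound to the granule that makes amylose in leaves, was 783 at ZT4 and 187 at ZT28, against 79.3 at ZT20 and 109.6 at ZT44, 4.32-fold higher (log2 difference 2.11 ± 0.61 SE, limma adjusted p = 0.86). A second probe set of the same gene did not share this: Zm.4622.1.A1_at was 163 at ZT4 and 132 at ZT28, against 132 at ZT20 and 157 at ZT44, with overlapping groups and a log2 difference of 0.10. The beta-amylase BMY1 was 1114 at ZT4 and 705 at ZT28, against 539.8 at ZT20 and 462 at ZT44. The list median of 0.03 became -0.04 without scaling and -0.02 after quantile normalization.

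The enzymes of starch breakdown that were lower differed most at ZT4. PHS2 (GRMZM2G147770), an alpha-glucan phosphorylase, was 884 at ZT4 and 2213 at ZT28, against 3099.8 at ZT20 and 2817 at ZT44 (log2 difference -1.01 ± 0.40 SE). AMY3, an alpha-amylase placed in the chloroplast in Arabidopsis, was 224 at ZT4 and 699 at ZT28, against 1036 at ZT20 and 1032 at ZT44 (-1.31 ± 0.66). SEX4, which removes phosphate from starch in Arabidopsis, was 480.4 at ZT4 and 596 at ZT28, against 800.4 at ZT20 and 819 at ZT44 (-0.53 ± 0.17). In each of these 3 both late-night signals were close together and ZT28 lay between them and ZT4.

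Of the clock and light signalling genes, 13 were tested, with 3 higher (23.1%) and 5 lower (38.5%), where 21.9% and 18% of all probe sets were, and a median of -0.19 (-0.27 without scaling, -0.21 after quantile normalization). The study called 12 of them rhythmic on these samples. The CONSTANS-like B-box factors, relatives of the Arabidopsis flowering-time regulator CONSTANS, were among the lower ones. COL1 (GRMZM2G405368) was 91.1 at ZT4 and 148 at ZT28, against 195 at ZT20 and 232 at ZT44 (log2 difference -0.80 ± 0.21 SE, limma adjusted p = 0.86). COL9 (GRMZM2G075562) was 93.7 at ZT4 and 424 at ZT28, against 689 at ZT20 and 683 at ZT44 (-1.71 ± 0.65), and it is also 1 of the 9 probe sets at least 1.5-fold lower in each pair. A second COL9 gene (GRMZM2G013398) was 18.3 at ZT4 and 70.9 at ZT28, against 126.1 at ZT20 and 73.2 at ZT44, with ZT28 and ZT44 nearly equal and a difference of -0.66 when signals under 50 were counted as 50. The B-box gene GRMZM2G012717 was 84.5 at ZT4 and 158 at ZT28, against 237 at ZT20 and 173 at ZT44.

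The core clock genes on the array differed strongly in how well the days matched. The homolog of LUX (GRMZM2G067702) was 6.03 at ZT4 and 156 at ZT28, against 184 at ZT20 and 228 at ZT44, so ZT4 lay under the background limit and below the other 3 arrays. Its fitted log2 difference of -2.67 ± 1.92 SE has no exact meaning at such a signal and was -1.18 with signals under 50 counted as 50. PRR7 (GRMZM2G095727), a pseudo-response regulator of the daytime in Arabidopsis, was 821 at ZT4 and 502 at ZT28, against 411 at ZT20 and 466 at ZT44 (0.63 ± 0.58). A further pseudo-response regulator (GRMZM2G135446) was 46.6 at ZT4 and 172 at ZT28, against 167 at ZT20 and 168 at ZT44, overlapping between groups. GI (GRMZM2G107101), which in Arabidopsis links the clock to flowering, overlapped too at 671 at ZT4 and 965 at ZT28, against 874 at ZT20 and 1071 at ZT44. In each of these 4 genes ZT4 was the most distant of the 4 arrays, and ZT28 was nearer to the late-night signals.

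Photosynthesis genes stood apart at ZT4 and not at ZT28. Of 26 light-harvesting and photosystem probe sets 4 were higher (15.4%) and 1 lower (3.85%), where 21.9% and 18% of all probe sets were, and 5 were higher and 5 lower after quantile normalization, although the list median was 0.25 (0.17 without scaling, 0.07 after quantile normalization). Its medians were 0.55 for ZT4 minus ZT20 and 0.63 for ZT4 minus ZT44, against -0.15 for ZT28 minus ZT20 and 0.02 for ZT28 minus ZT44. In this list 22 of 26 belong to the 2503 brightest probe sets, whose median was 0.20 for ZT4 against late night, and the part of brightness was not tested. The antenna gene lhcb6 was 4978 at ZT4 and 2472 at ZT28, against 2364 at ZT20 and 2303 at ZT44 and 2 other probe sets of it overlapped between the groups. Chlorophyll synthesis showed the same pattern over 9 probe sets, with 2 higher (22.2%) and 1 lower (11.1%), and medians of 0.60 for ZT4 minus ZT20 and -0.15 for ZT28 minus ZT20.

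Of the photosystem genes, LHCA3, an antenna protein of photosystem I, was 11167 at ZT4 and 8029 at ZT28, against 7453 at ZT20 and 7299 at ZT44 (log2 difference 0.43 ± 0.23 SE). LHCB4.2, of the photosystem II antenna, overlapped at 7788 at ZT4 and 5632 at ZT28, against 5653 at ZT20 and 5351 at ZT44. The ferredoxin-NADP reductase L-FNRI, which ends the electron chain, was the 1 lower member at 1566 at ZT4 and 1904 at ZT28, against 2271 at ZT20 and 2304 at ZT44 (-0.33 ± 0.17). LHCA3 and the reductase thus lay on opposite sides and LHCB4.2 on neither, and in both antenna genes ZT28 was close to late night.

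The protochlorophyllide reductase pcr1, which makes chlorophyllide in light, was 3404 at ZT4 and 1689 at ZT28, against 1281 at ZT20 and 1532 at ZT44, and CH1, which makes chlorophyll b, was 812 at ZT4 and 456 at ZT28, against 353 at ZT20 and 421 at ZT44. GUN4, which aids magnesium insertion, overlapped at 3484 at ZT4 and 1782 at ZT28, against 1864 at ZT20 and 1618 at ZT44. The chlorophyll synthetase G4 was the lower member, at 1799.5 at ZT4 and 1919 at ZT28, against 2198 at ZT20 and 2135 at ZT44. The chlorophyll genes thus lay on both sides. Genes of the C4 and Calvin cycles, which fix carbon dioxide in mesophyll and bundle sheath, held 0 higher and 1 lower of 29. The shares over all probe sets were 21.9% and 18%. The list median of 0.05 was -0.02 without scaling and -0.10 after quantile normalization. In the last setting 14 members were lower, and so were 2699 of all 12512 probe sets. The 1 lower gene on the centred scale was a putative transketolase (GRMZM2G033208) at 3321 at ZT4 and 3493 at ZT28, against 4233 at ZT20 and 3892 at ZT44. The groups overlapped in the other 3 genes of that list with the lowest p, a class II aldolase (GRMZM2G431708) with a log2 difference of -0.25, ald1 with 0.20 and the epimerase RPE with 0.19.

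**Figure D5:**
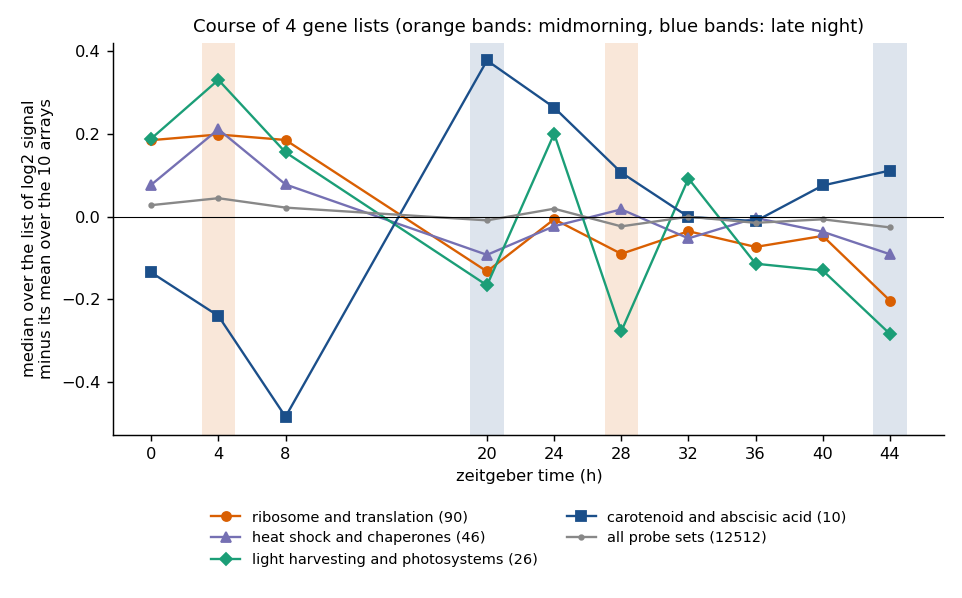
Median over each list of log2 signal minus the probe set's mean over the 10 arrays, against zeitgeber time in hours, for 4 lists and all probe sets (numbers of probe sets in parentheses), with 1 array per point and lines that cross hours with no array analysed here. Orange bands mark midmorning and blue bands late night: on these median-centred signals the light-harvesting list is high at ZT4 (0.33) and low at ZT28 (-0.28), whereas the carotenoid list is at -0.24 at ZT4 and 0.11 at ZT28, against 0.38 at ZT20 and 0.11 at ZT44, and the midmorning difference of the light-harvesting list is 0.07 after quantile normalization.

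The cell wall list held 11 of 52 higher (21.2%) and 5 lower (9.62%), where 21.9% and 18% of all probe sets were. These counts were 9 and 11 without scaling and 11 and 11 after quantile normalization. The list median of 0.14 was 0.07 without scaling and 0.10 after quantile normalization. A beta-expansin (GRMZM2G021427), of the family that loosens grass cell walls, was 1093 at ZT4 and 362 at ZT28, against 239.7 at ZT20 and 179 at ZT44 (log2 difference 1.68 ± 0.54 SE, limma adjusted p = 0.86). Cinnamoyl-CoA reductase CCR1 (GRMZM2G131205), an enzyme of lignin synthesis, was 1826 at ZT4 and 1272 at ZT28, against 971 at ZT20 and 1064 at ZT44. The xyloglucan transferase XTR4 (GRMZM2G060837), which rejoins wall polymers, was 183 at ZT4 and 173 at ZT28, against 113.2 at ZT20 and 112 at ZT44. Expansin and CCR1 were led by ZT4, whereas XTR4 was level between the days. Of the lower members, the cellulose synthase CESA6, which spins wall cellulose, was 1806 at ZT4 and 2307 at ZT28, against 2560.1 at ZT20 and 2447 at ZT44 (-0.22 ± 0.14), and CSLD3, a relative of it, was 372 at ZT4 and 423 at ZT28, against 535 at ZT20 and 511 at ZT44 (-0.33 ± 0.17).

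Among genes of tRNA charging and amino acid synthesis, those whose groups did not overlap were more often lower than higher. Of 29 probe sets 9 were lower (31%) and 3 higher (10.3%), where 18% and 21.9% of all probe sets were. Over the whole list 14 log2 differences were positive and 15 negative. The list median was -0.05 (-0.12 without scaling, -0.08 after quantile normalization). Without scaling 14 members were lower, and so were 3077 of all 12512 probe sets, against 2257 with centring. Glutamate synthase GLU1 (GRMZM2G036609), which assimilates ammonium in the chloroplast, was 1378 at ZT4 and 1812 at ZT28, against 2530.0 at ZT20 and 2237 at ZT44 (log2 difference -0.52 ± 0.19 SE). The serine acetyltransferase sat2, which starts cysteine synthesis, was 69.5 at ZT4 and 99.8 at ZT28, against 135 at ZT20 and 131 at ZT44. AKHSDH1, a bifunctional enzyme of the aspartate pathway, was 422 at ZT4 and 429 at ZT28, against 590.1 at ZT20 and 553 at ZT44 (-0.35 ± 0.12). These 3 genes were lower on both days. In the other direction, the alpha subunit of tryptophan synthase (GRMZM2G046163) was 2167 at ZT4 and 1289 at ZT28, against 881 at ZT20 and 972 at ZT44 (0.93 ± 0.31).

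Transcription factors were likewise more often lower, with 33 of 105 lower (31.4%) and 19 higher (18.1%), where 18% and 21.9% of all probe sets were. Without scaling 41 were lower and 12 higher, and after quantile normalization 38 and 18. The list median was -0.03 with centring, beside 0.03 over all probe sets. After quantile normalization it was -0.07, beside -0.01. A jumonji factor (GRMZM2G052908), of a family that includes histone demethylases, was 38.4 at ZT4 and 481 at ZT28, against 736 at ZT20 and 648 at ZT44 (log2 difference -2.27 ± 1.13 SE), with ZT4 under the background limit of 50 and a difference of -2.12 when signals under 50 were counted as 50. The homeobox gene kn1, which keeps shoot meristem cells undifferentiated, was 100.4 at ZT4 and 66.8 at ZT28, against 48.2 at ZT20 and 39.1 at ZT44 (0.99 ± 0.41), and its relative lg4b was 77.6 at ZT4 and 57.9 at ZT28, against 33.5 at ZT20 and 43.8 at ZT44 (0.88 ± 0.31). Late-night signals of both homeobox genes lay under that limit, and their differences were 0.73 and 0.44 with signals under 50 counted as 50.

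With centring, the ubiquitin, redox and hormone lists stood near the shares of all probe sets, 21.9% higher and 18% lower. Of 36 ubiquitin and proteasome probe sets 8 were higher and 7 lower, but 5 and 14 without scaling, of 59 redox probe sets 13 and 11, and of 45 hormone probe sets 8 and 10. Within them, the superoxide dismutase sod2, which removes superoxide, was 1732 at ZT4 and 1827 at ZT28, against 1480.3 at ZT20 and 1546 at ZT44 (log2 difference 0.31 ± 0.12 SE), a small difference with close pairs. The gibberellin synthesis gene an1 was 129 at ZT4 and 125.9 at ZT28, against 88.3 at ZT20 and 107 at ZT44. UBC9, a ubiquitin-conjugating enzyme, was 8078 at ZT4 and 5722 at ZT28, against 4909 at ZT20 and 5419 at ZT44, with ZT4 clearly the highest array. The F-box gene FBX3 was 282 at ZT4 and 250.4 at ZT28, against 396 at ZT20 and 349.7 at ZT44 (-0.41 ± 0.18). An SNF2 helicase (GRMZM2G449355) of the same list was lower by a log2 difference of -0.32, and 1 weak probe set of ubc7 was higher by 0.47 while its 4 others lay between -0.10 and 0.09. Catalase cat2, which breaks down hydrogen peroxide, was lower at 424 at ZT4 and 549 at ZT28, against 709.5 at ZT20 and 677 at ZT44. The ferredoxin-thioredoxin reductase gene ftr1 had a log2 difference of -0.27, the thioredoxin ACHT4 0.43, the response regulator RR9 -0.32 and the dormancy-associated gene GRMZM2G099049 -0.79, where the deposited signal was 1007.4 at ZT28, against 993 at ZT20. The weak cko3 of the hormone list was 62.9 at ZT4 and 52.5 at ZT28, against 28.8 at ZT20 and 44.5 at ZT44. Its log2 difference of 0.75 was 0.22 with signals under 50 counted as 50. The median of the redox list was 0.08 with centring and -0.02 after quantile normalization, and that of the hormone list was 0.02 with centring and -0.05 without scaling.

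The 6 arrays that the comparison did not use were read for the probe sets at least 1.5-fold apart in each pair. For the 39 higher ones, the signal at ZT24, subjective dawn of the second day, lay between ZT20 and ZT28 in 28. It lay between in 907 of all 2741 probe sets with higher midmorning signals. The 39 were picked for a large difference from ZT20 to ZT28, which by itself favours a signal in between. A signal on the midmorning side of the midpoint between the group means was found in 25 at ZT0, 26 at ZT8, 16 at ZT24, 19 at ZT32, 10 at ZT36 and 6 at ZT40. As shares of the 39 these are 64.1% at ZT0, 66.7% at ZT8 and 15.4% at ZT40, beside 69.2%, 72.1% and 39.4% of all 2741 probe sets with higher midmorning signals, so the daytime shares are not particular to the 39. For the 9 lower probe sets, ZT24 lay between in 7, beside 959 of all 2257 with lower midmorning signals. The midmorning side was reached in 6 at ZT0, 6 at ZT8, 3 at ZT24, 3 at ZT32, 3 at ZT36 and 1 at ZT40. Among all 2257 it was reached in 65.3% at ZT0, 68.4% at ZT8 and 39.2% at ZT40.

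The difference from late night was larger at ZT4 than at ZT28 in 31 of the 39 and in 8 of the 9. Among all probe sets whose groups do not overlap, it was so in 2236 of 2741 higher and 1675 of 2257 lower ones. The larger difference at ZT4 is therefore not particular to the probe sets at least 1.5-fold apart. Afternoon signals could go further still: the HhH-GPD protein reached 3289 at ZT8 and 1176 at ZT32, and the DNAJ gene GRMZM2G059502 reached 482 at ZT8 and 152 at ZT32. PIP2-6 had already returned to 377 at ZT8 and 263 at ZT32, and Zm.6763.3.A1_at stood at 96.7 at ZT32 after 422 at ZT28. On the first day Zm.6763.3.A1_at (315) and Zm.301.1.A1_a_at (4162) were higher at ZT0 than at ZT4, whereas both were lower at ZT24 than at ZT28. These probe sets therefore differed in whether midmorning was the top of the course or a point on the way to the afternoon. In some, the first-day signal was already past a higher one at ZT0.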

How the data were processed

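RNA of whole aerial tissue was hybridized to the Affymetrix Maize Genome Array. The deposited table gives 1 linear intensity per probe set and array, which the authors computed with MAS5; its version is not given in the sources used. Control probe sets (113) were left out and 17621 kept. Groups were taken from the labels. Values under 1 (2968) were set to 1, log2 was taken and each array was centred on its median over the 12512 probe sets that reached 50 on 3 or more of the 10 arrays. MAS5 subtracts mismatch signal, so weak intensities scatter most on the log2 scale.

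The model in limma 3.58.1 (R 4.3.3) held all 10 arrays (1 mean per subjective time, 6 times, 4 of them with 2 arrays, 4 residual degrees of freedom, eBayes with intensity trend), and midmorning minus late night was tested two-sided with Benjamini-Hochberg adjustment over 12512 probe sets at 0.05. For counts by size, signals under 50 after centring were counted as 50. The fit was tested on 5 simulations of 12512 probe sets of which 200 were changed: log2 changes of 1, 2 and 3 were recovered in 43.3%, 88.7% and 97.2% of cases, with 5.66%, 5.64% and 5.54% of calls false. Simulated noise was independent between probe sets, so these rates need not hold here.

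Names come from the platform annotation and from function tables of the study, held here in part, mostly matches to Arabidopsis; 2778 probe sets are named. By rule the text names, among these, all past 2-fold in each pair, the 10 with the lowest p, up to 4 per list with the lowest p, and genes of the study's table of processes with an unadjusted p of at most 0.05. Other genes of the 15 lists and the unnamed probe sets were chosen after their values were seen. Members and lists were chosen with earlier results of these data known, and 1087 probe sets of the function tables were called rhythmic by the study on these samples. Alternatives were other scalings, filters, pseudocounts, models and each array left out. Python 3.11.15, numpy 2.4.6 and pandas 2.3.3 were used for counts and matplotlib 3.10.9 for figures. For arrays, their number limits the precision. ZT12 and ZT16 were not analysed here.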

Additional observations from a re-analysis of the deposited data

How the results depend on the processing

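No setting gave a probe set at an adjusted p of 0.05 or 0.1 with limma, and the lowest adjusted p was 0.155, with ZT28 left out. At an unadjusted p of at most 0.05 there were 498 probe sets, 813 with the 4 arrays alone, 1218 with a day block, 739 without a filter, and between 152 (without ZT4) and 1664 (without ZT28) with 1 array left out. The day block pairs ZT4 with ZT20 and ZT28 with ZT44, with 3 residual degrees of freedom and a lowest adjusted p of 0.22; the labels' replicate numbers, all 1, pair nothing. The count of 6 probe sets at least 2-fold apart in each pair became 10 with signals under 1 counted as 1, 48 at 1.5-fold and 0 at 3-fold. With 1 array left out it was between 11 (without ZT4) and 265 (without ZT28), with 21 without ZT20 and 27 without ZT44; fewer pairs then have to hold. Of the 48, 41 remained without scaling and 41 after quantile normalization. Of 66 named probe sets, 65 kept their direction in all settings, and the ribulose-phosphate epimerase RPE (Zm.7577.1.S1_at) was -0.022 without ZT4 and 0.41 without ZT28, beside 0.19. Sizes were less stable: after quantile normalization the named differences were between 0.05 and 1.99 times those of the main fit. With a filter of 100, 61 of the 66 were tested.

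List counts under settings chosen after seeing the data were as follows. Ribosome members that were higher numbered between 55 and 77 with 1 array left out (77 without ZT28), beside 51, and aquaporins between 20 and 29, beside 20. Lower transcription factors numbered between 43 and 52 (52 without ZT4), beside 33, and lower carotenoid members between 5 and 8 (8 without ZT28), beside 5. Lower members of tRNA charging and amino acid synthesis were 14 without scaling and between 12 and 14 with 1 array left out (14 without ZT4, ZT20 or ZT44), beside 9. With 1 array left out, fewer pairs have to hold. The share over all probe sets also rose, to between 32.1% and 48.2% higher and between 28.6% and 34.8% lower. The part of this in the list counts was not tested.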
